A study of Mus musculus with 12 samples.

Results

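The genes described here encode the enzymes that make cholesterol and long-chain fatty acids, together with the proteins that control them. The list named 33 genes by their place in the pathway, chosen with earlier results of these data known, and split them into 18 sterol enzymes, 6 regulators and carriers and 9 fatty acid enzymes. Of the 33, 32 had a probe set with a single gene symbol, out of 19938 such genes on the array, and Acat2 was not analysed here. The 32 genes, 17 of them sterol enzymes, all passed the filter on dim genes and were among the 14953 genes tested.

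RNA came from whole hypothalamus of male C57BL/6J mice made obese by a diet with 45% fat, eaten for 20 weeks from the age of 3 weeks, and the mice were 23 weeks old. The 3 groups were celastrol at 100 µg/kg, withaferin A at 2 mg/kg and the vehicle DMSO, each injected intraperitoneally once a day for 4 days. Celastrol is a plant triterpenoid and withaferin A a plant steroidal lactone, both known to lower food intake in obese mice. All mice, controls included, were obese and had received DMSO for 4 days before treatment, so no lean or uninjected animals stand beside them, and the doses of the compounds differ. Each group had 4 biological replicates with 1 Affymetrix array each, and values are log2 signals.

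Cholesterol hardly crosses the blood-brain barrier, so the brain makes its own, with oligodendrocytes and astrocytes as main producers in the adult. Acetyl-CoA is built into mevalonate, isoprenoids, squalene and lanosterol, which is trimmed to cholesterol, while a parallel branch builds, elongates and desaturates fatty acids. The transcription factors SREBP-2 (Srebf2) and SREBP-1 (Srebf1) switch these genes on; SCAP carries them out of the endoplasmic reticulum when sterols are scarce, and INSIG proteins hold them back when sterols are plentiful.

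The promoters show what these genes share in sequence. RefSeq promoters on GRCm38.p6, from 250 bases before to 50 bases after each annotated start, were matched by symbol to 26 of the 33 genes. Fdps, Fdft1, Sqle, Stard4, Scd1, Scd2 and Fads1 had no match and are absent from the promoters printed below. Fdps and Sqle had lower p-values for celastrol than the printed Hmgcs1 and Sc5d. The CCAAT box, CCAAT on either strand and the core of NF-Y binding sites, was found in 21 of the 26 genes (80.8%), against 41.1% of all 27025 genes with a promoter. It stood in 14 of 15 sterol enzymes (93.3%), 4 of 5 regulators and carriers (80.0%) and 3 of 6 fatty acid enzymes. A sterol regulatory element spelled TCACNCCAC was found on either strand in 1 of the 26 genes, Hmgcs1, against 1.44% of all genes. The E-box CACGTG, which SREBP-1 can also bind, occurred in 6 of the 26 genes (23.1%), against 8.09% of all genes. Each gene was counted once over its annotated starts. A match describes letters only, and the absence of a match describes only this window.

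Promoters are printed for genes whose array values carry the results below: 3 sterol enzymes and a fatty acid enzyme with low p-values for celastrol, the sterol enzyme with the lowest p-value for withaferin A, and Insig1, which was added after its values had been seen. They lie at chr13:119690101-119690400 (Hmgcs1, plus strand), chr7:143829964-143830263 (Dhcr7, plus strand), chr9:42264251-42264550 (Sc5d, minus strand), chr13:8885356-8885655 (Idi1, plus strand), chr5:28071162-28071461 (Insig1, plus strand) and chr19:10101454-10101753 (Fads2, minus strand). Each reads 5′ to 3′ on the gene's strand, and capitals mark matches to the CCAAT box and to the sterol regulatory element. A CCAAT box on the opposite strand reads ATTGG.
Hmgcs1: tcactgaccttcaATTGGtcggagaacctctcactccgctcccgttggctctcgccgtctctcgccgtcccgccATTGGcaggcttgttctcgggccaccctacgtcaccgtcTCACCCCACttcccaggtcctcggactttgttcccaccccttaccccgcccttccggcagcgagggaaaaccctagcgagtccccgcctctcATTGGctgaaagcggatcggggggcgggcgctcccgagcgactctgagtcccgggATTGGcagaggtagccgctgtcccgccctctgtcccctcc
Dhcr7: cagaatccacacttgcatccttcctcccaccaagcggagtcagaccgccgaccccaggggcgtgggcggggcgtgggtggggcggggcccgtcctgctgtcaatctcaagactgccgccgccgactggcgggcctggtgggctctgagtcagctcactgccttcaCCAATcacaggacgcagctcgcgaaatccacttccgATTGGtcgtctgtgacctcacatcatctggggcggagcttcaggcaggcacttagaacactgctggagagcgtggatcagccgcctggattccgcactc
Sc5d: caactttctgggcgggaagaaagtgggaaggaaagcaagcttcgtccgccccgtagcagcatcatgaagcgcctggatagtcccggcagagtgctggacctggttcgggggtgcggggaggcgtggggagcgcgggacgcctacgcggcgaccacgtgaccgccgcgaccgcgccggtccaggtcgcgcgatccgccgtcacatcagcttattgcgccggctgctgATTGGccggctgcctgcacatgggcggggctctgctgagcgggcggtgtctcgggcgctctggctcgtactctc
Idi1: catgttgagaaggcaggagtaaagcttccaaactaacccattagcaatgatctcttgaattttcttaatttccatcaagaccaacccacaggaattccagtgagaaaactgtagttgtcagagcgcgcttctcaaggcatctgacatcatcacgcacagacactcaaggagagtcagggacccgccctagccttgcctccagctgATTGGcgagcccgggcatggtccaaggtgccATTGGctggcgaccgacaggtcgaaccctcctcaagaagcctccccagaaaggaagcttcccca
Insig1: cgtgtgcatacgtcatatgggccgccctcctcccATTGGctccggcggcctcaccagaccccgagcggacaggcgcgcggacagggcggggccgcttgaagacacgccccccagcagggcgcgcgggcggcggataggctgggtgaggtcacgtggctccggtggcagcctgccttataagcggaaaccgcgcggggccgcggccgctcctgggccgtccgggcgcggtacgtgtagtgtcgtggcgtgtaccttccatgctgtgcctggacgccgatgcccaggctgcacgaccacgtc
Fads2: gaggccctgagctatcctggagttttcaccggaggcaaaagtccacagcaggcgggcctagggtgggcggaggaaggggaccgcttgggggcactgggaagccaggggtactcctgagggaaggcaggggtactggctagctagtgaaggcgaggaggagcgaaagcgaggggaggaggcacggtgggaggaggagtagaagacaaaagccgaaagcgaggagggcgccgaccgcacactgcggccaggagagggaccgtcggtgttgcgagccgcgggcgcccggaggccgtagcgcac
Hmgcs1 held 4 CCAAT matches and the sterol element, which spans positions −137 to −129 from the start, counted as 0, and overlaps none of them. Dhcr7 held 2 CCAAT matches at the start shown and 0 at either of the other 2 annotated starts. Idi1 held 2, Insig1 and Sc5d 1 each, and Fads2 held 0. Among all 26 genes, a pair of CCAAT matches in Fasn, on opposite strands, overlapped each other.

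**Figure D1:**
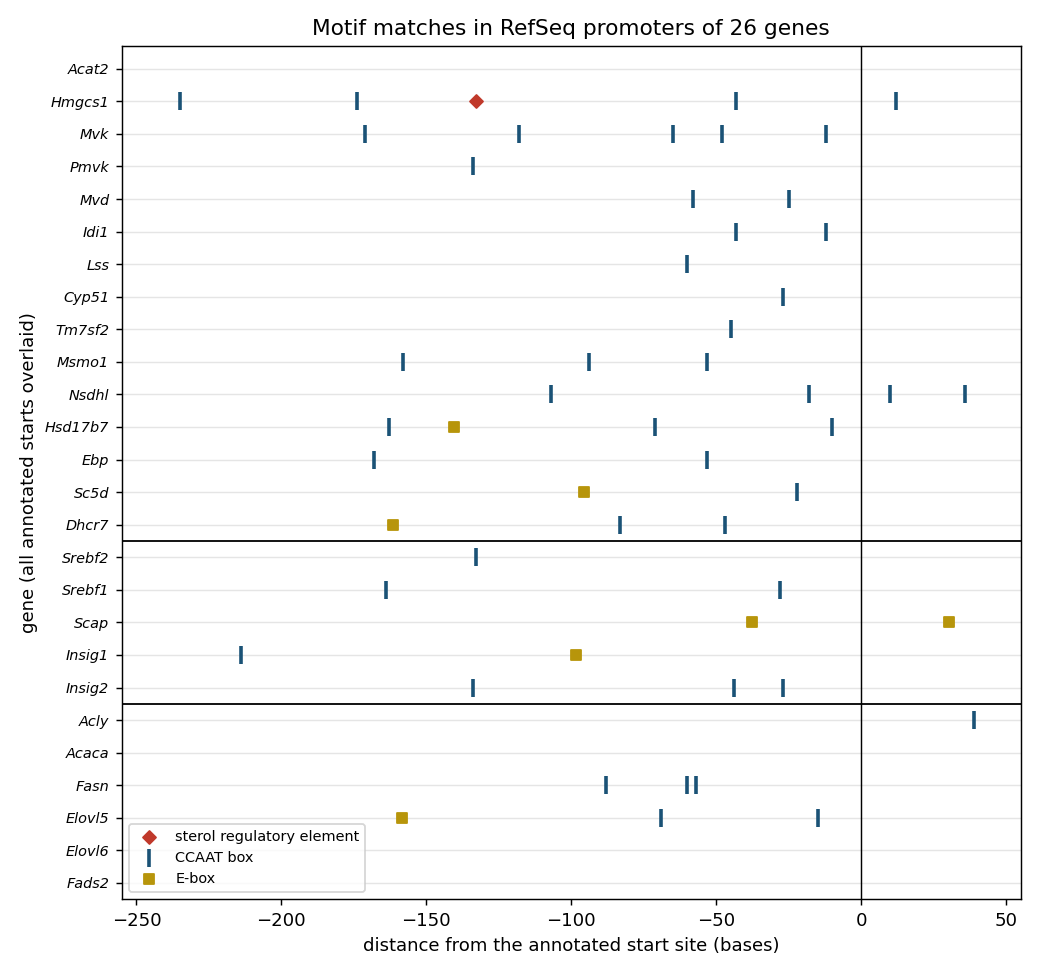
Motif matches in the RefSeq promoters of 26 sterol and fatty acid synthesis genes. The horizontal axis is the distance in bases from the annotated start site, each row is a gene with all its annotated starts overlaid, and marks show the CCAAT box (bars), E-box (squares) and sterol regulatory element (diamond). CCAAT matches stand in 14 of 15 sterol enzymes and in 3 of 6 fatty acid enzymes, and the diamond appears in Hmgcs1 only.

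Libraries were compared before the genes. Any pair of arrays correlated at 0.981 to 0.994 across probe sets, and array medians were 6.89 to 6.98. The tissue label was checked on hypothalamic transcripts: Hcrt, the orexin precursor, had log2 signals from 11.92 to 12.51, and Pmch, the precursor of melanin-concentrating hormone, from 11.65 to 12.32. Markers of the neighbouring pituitary varied, with the highest level on celastrol replicate 2, where Gh (growth hormone) reached 10.96 against 6.81 to 7.98 on the other celastrol arrays, 6.75 to 7.30 on the withaferin A arrays and 6.30 to 6.94 on the DMSO arrays. Over 4 tested pituitary markers the mean deviation from the DMSO mean was 0.49 to 3.09 on celastrol arrays. It was 0.034 to 0.59 on withaferin A arrays and −0.29 to 0.29 on DMSO arrays. Every celastrol array thus lay above every DMSO array in this mean, while each of the 4 markers alone had overlapping celastrol and DMSO arrays. Prl, among the 4, had 9.80 on celastrol replicate 2 and 5.19 to 6.08 on the other arrays. That array carried the mean of Prl over the filter at 5.81. The part of pituitary tissue in the results below was not tested, and values without celastrol replicate 2 are given for several of them.

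Celastrol was compared with DMSO to see whether the synthesis genes differed after treatment. Most of them had slightly lower signals with celastrol, with differences of at most 16.6% for a single gene. The lowest values relative to DMSO belonged to Insig1, an SREBP target as well as its brake, and to the sterol enzymes Sqle, Dhcr7 and Fdps. None of the 32 genes passed the test over all genes (limma, adjusted p below 0.05, 0 of 32), where 115 of 14953 genes did (0.769%), 68 of them higher (0.455%) and 47 lower (0.314%). With single arrays left out, the lowest of these counts was 6, when DMSO replicate 2 was missing, and the highest 207, when withaferin A replicate 1 was missing. At an unadjusted p under 0.05, 12 of the 32 were lower (all genes: 6.25%) and 0 were higher (all genes: 4.19%). The 12 comprised 7 of 17 sterol enzymes, 3 of 6 regulators and carriers and 2 of 9 fatty acid enzymes. Without celastrol replicate 2 the count of 12 became 7 (all genes: 5.39%), and without DMSO replicate 4 it was likewise 7 (all genes: 5.87%).

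The log2 change was below 0 for 28 of 32 genes, against 57.4% of all genes. Medians were −0.11 for sterol enzymes, −0.12 for regulators and carriers and −0.068 for fatty acid enzymes, against −0.017 for all tested genes. The sterol median corresponds to a signal 7.65% below DMSO. Arrays were summarised by their mean deviation from the DMSO mean over each branch. For sterol enzymes this ran from −0.16 to −0.057 on celastrol arrays, from −0.13 to −0.030 on withaferin A arrays and from −0.039 to 0.027 on DMSO arrays. Every celastrol array thus lay below every DMSO array, while the lowest DMSO array was below the highest withaferin A array. For fatty acid enzymes it ran from −0.084 to −0.029 with celastrol, −0.086 to −0.049 with withaferin A and −0.026 to 0.037 with DMSO. In that branch every treated array lay below every DMSO array in the deposited values, by a narrow gap for celastrol. For regulators and carriers the same measure ran from −0.22 to −0.062 with celastrol, from −0.072 to 0.022 with withaferin A and from −0.047 to 0.045 with DMSO, and the lowest celastrol value was on replicate 2. Without that array the median was −0.068 for the regulators and carriers, −0.079 for fatty acid enzymes and −0.10 for sterol enzymes. Differences between the branches were not tested.

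**Figure D2:**
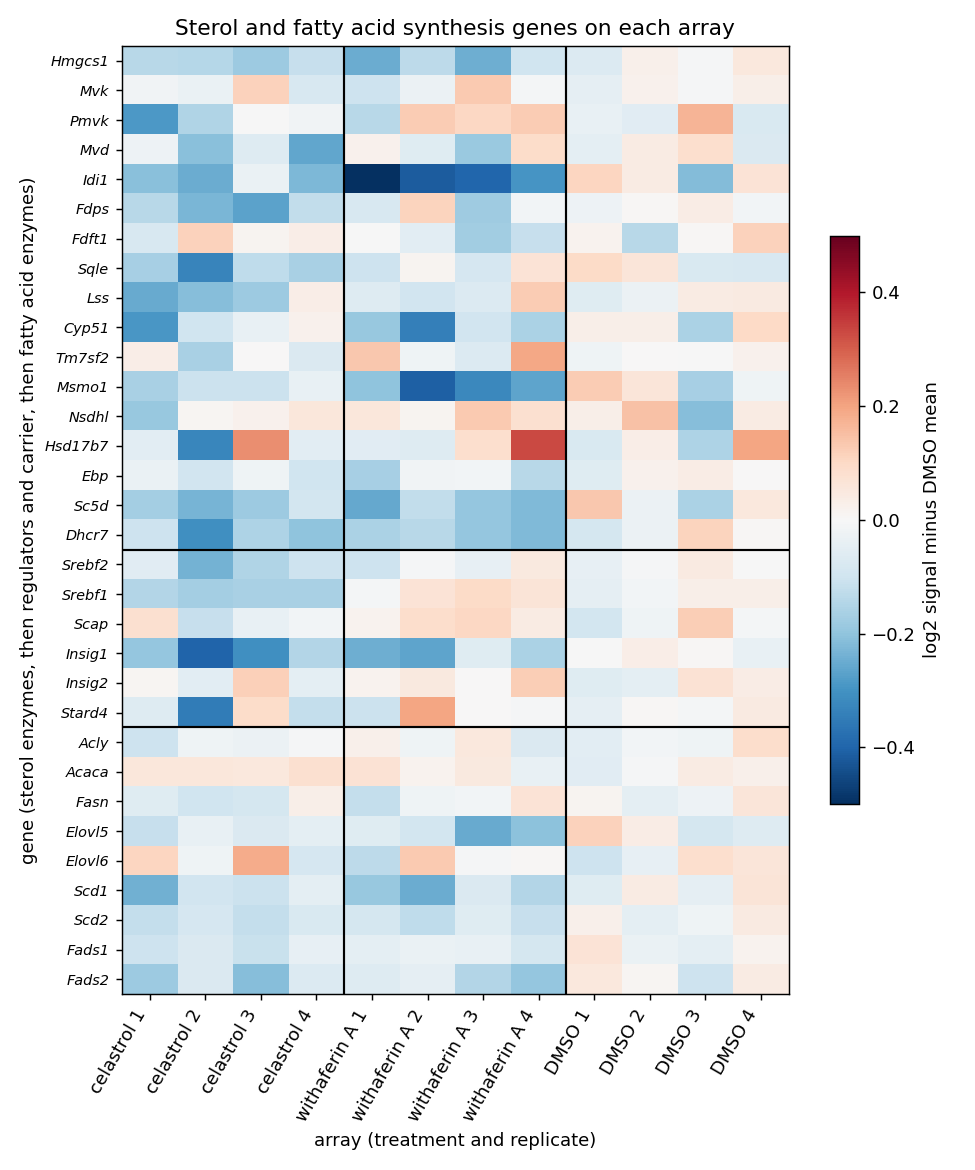
Log2 signal of the 32 genes on each of the 12 arrays, as the difference from the gene's DMSO mean, with genes in rows and arrays in columns. Blue marks values below the DMSO mean and red values above it. The 4 celastrol columns are mostly blue through the sterol enzymes and regulators, with branch means from −0.16 to −0.057 for sterol enzymes, while withaferin A columns are darkest at Idi1 and Msmo1.

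Among the regulators, Insig1 had log2 signals of 10.23, 10.02, 10.11 and 10.27 with celastrol, 10.18, 10.16, 10.36 and 10.26 with withaferin A and 10.42, 10.45, 10.43 and 10.38 with DMSO. All 8 treated arrays were below all 4 DMSO arrays, and celastrol replicate 2 was lowest. The celastrol difference was −0.26 ± 0.06 (SE, n = 4 per group), a signal 16.6% lower, with a limma adjusted p of 0.0916. Over the alternatives the adjusted p of Insig1 ran from 0.0271 to 0.255. It was below the threshold with an intensity trend and a robust prior (adjusted p = 0.0271) and with array weights (−0.28, adjusted p = 0.0375), and without celastrol replicate 2 the difference was −0.22 (adjusted p = 0.236). Insig2, its paralog, differed by 0.0070 ± 0.056, a sign that turns to −0.0043 when arrays are centred on their medians.

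Srebf1, which drives fatty acid synthesis most strongly, had 9.03, 9.01, 9.02 and 9.02 with celastrol, 9.17, 9.25, 9.27 and 9.24 with withaferin A and 9.14, 9.16, 9.21 and 9.21 with DMSO. The celastrol arrays lay close together, with an SD of 0.010 against 0.035 for DMSO, and below every other array. The difference between celastrol and DMSO was −0.16 ± 0.05 (SE; limma adjusted p = 0.154). Srebf2, the main activator of the sterol enzymes, had 10.76, 10.58, 10.66 and 10.71 with celastrol, 10.71, 10.81, 10.77 and 10.87 with withaferin A and 10.78, 10.81, 10.86 and 10.82 with DMSO. Its celastrol arrays did not overlap the DMSO arrays, and the difference was −0.14 ± 0.05 (SE; limma adjusted p = 0.356). Without celastrol replicate 2 the difference of Srebf2 was −0.10. Scap, the sterol-sensing escort protein, differed by −0.021 ± 0.059 (SE), and Stard4, a soluble sterol carrier, by −0.11 ± 0.085 (SE).

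Hmgcs1, which makes HMG-CoA early in the mevalonate pathway and whose promoter holds the sterol element shown above, had 10.46, 10.45, 10.41 and 10.48 with celastrol, 10.34, 10.46, 10.35 and 10.49 with withaferin A and 10.52, 10.62, 10.59 and 10.64 with DMSO. Both compounds' arrays were below all DMSO arrays. The celastrol difference was −0.14 ± 0.05 (SE; limma adjusted p = 0.292). Fdps, which makes farnesyl diphosphate, had 9.26, 9.17, 9.13 and 9.28 with celastrol, 9.32, 9.51, 9.22 and 9.39 with withaferin A and 9.37, 9.40, 9.44 and 9.39 with DMSO. Celastrol arrays stood apart from DMSO arrays here, with a difference of −0.19 ± 0.06 (SE; limma adjusted p = 0.238), while withaferin A arrays spread across both.

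Sqle, squalene epoxidase, a rate-limiting oxygen-dependent step, had 9.37, 9.21, 9.41 and 9.37 with celastrol, 9.43, 9.55, 9.45 and 9.60 with withaferin A and 9.63, 9.60, 9.46 and 9.46 with DMSO. Celastrol arrays were again below all DMSO arrays, by −0.20 ± 0.06 on average (SE; limma adjusted p = 0.239). Without celastrol replicate 2 the difference of Sqle was −0.15. Dhcr7, which carries out the last reduction to cholesterol, had 9.25, 9.05, 9.20 and 9.15 with celastrol, 9.20, 9.22, 9.16 and 9.13 with withaferin A and 9.26, 9.32, 9.46 and 9.36 with DMSO. Both treated groups lay below DMSO, and the celastrol difference was −0.19 ± 0.06 (SE; limma adjusted p = 0.191), with the nearest arrays at 9.25 and 9.26. Without celastrol replicate 2 that difference was −0.15. The Dhcr7 promoter at the start shown holds 2 CCAAT matches.

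Of the other sterol enzymes, Idi1 (isopentenyl diphosphate isomerase), Lss (lanosterol synthase) and Sc5d (sterol C5-desaturase) had celastrol differences of −0.18, −0.15 and −0.17, with unadjusted p-values of 0.0482, 0.047 and 0.0197. Their celastrol and DMSO arrays overlapped. The remaining 10 ranged from −0.14 for Mvd (mevalonate diphosphate decarboxylase) to 0.020 for Fdft1 (squalene synthase). Between them lay Pmvk (phosphomevalonate kinase, −0.11), Msmo1 and Nsdhl (C4 demethylation, −0.10 and −0.026), Cyp51 (lanosterol demethylase, −0.10), Ebp (sterol isomerase, −0.063), Tm7sf2 (sterol reductase, −0.050) and Hsd17b7 (sterol ketone reductase, −0.050). Mvk, mevalonate kinase, differed by −0.0038, which turned to 0.0085 after a renewed quantile normalization. Idi1, Fdft1 and Acaca each have a second single-symbol probe set, and in the celastrol comparison its sign was the same in all 3 genes.

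In the fatty acid branch, Scd1, a stearoyl-CoA desaturase that makes monounsaturated fatty acids, had 12.02, 12.16, 12.15 and 12.21 with celastrol, 12.07, 12.01, 12.19 and 12.11 with withaferin A and 12.20, 12.30, 12.21 and 12.32 with DMSO. Withaferin A arrays were below all DMSO arrays, and celastrol overlapped them by 1 array. The celastrol difference was −0.12 ± 0.06 (SE; limma adjusted p = 0.49). Scd2, the desaturase prominent in brain, had 13.25, 13.28, 13.25 and 13.29 with celastrol, 13.28, 13.24, 13.30 and 13.25 with withaferin A and 13.39, 13.32, 13.34 and 13.41 with DMSO. Both treated groups lay below DMSO by −0.099 ± 0.045 with celastrol and −0.098 ± 0.045 with withaferin A (SE, n = 4 per group), at limma adjusted p-values of 0.459 for celastrol and 0.31 for withaferin A.

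Fads2, the delta-6 desaturase of polyunsaturated fatty acids, differed by −0.13 ± 0.06 with celastrol (unadjusted p = 0.0381), and Fads1, the delta-5 desaturase, by −0.081 ± 0.046. The enzymes that build the chain differed less: Acly, which supplies cytosolic acetyl-CoA, by −0.040 ± 0.051, Fasn, fatty acid synthase, by −0.055 ± 0.054, and the elongases Elovl5 and Elovl6 by −0.068 ± 0.061 and 0.047 ± 0.074. Acaca, acetyl-CoA carboxylase, was the single gene whose celastrol arrays all lay above DMSO, at 9.81, 9.81, 9.81 and 9.83 against 9.70, 9.74, 9.79 and 9.78, with a difference of 0.061 ± 0.046 (SE; limma adjusted p = 0.718). In all, 8 of 32 genes had celastrol arrays wholly below DMSO (all genes: 4.50%) and 1 wholly above (all genes: 2.71%). The 8 were Hmgcs1, Fdps, Sqle, Dhcr7, Srebf1, Srebf2, Insig1 and Scd2. That count was 4 after a renewed quantile normalization (all genes: 4.28%), 14 without DMSO replicate 3 (all genes: 7.34%) and 13 without celastrol replicate 4 (all genes: 6.81%).

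**Figure D3:**
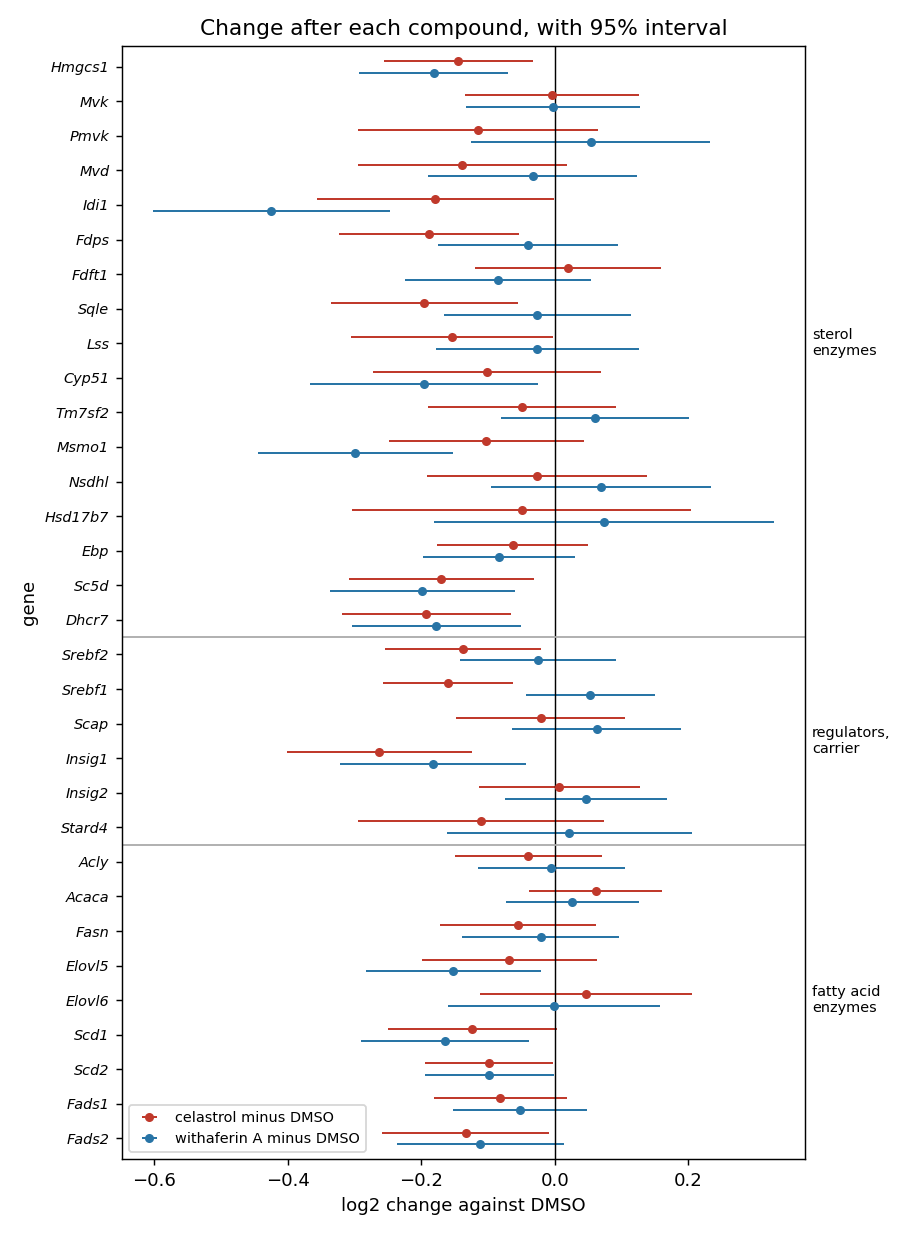
Log2 change of each of the 32 genes against DMSO after celastrol and after withaferin A, with points for the estimates and bars for the 95% interval from the fit over all genes (n = 4 arrays per group). Celastrol points lie left of 0 for 28 of 32 genes. The withaferin A points of Idi1 (−0.42) and Msmo1 (−0.30) lie farthest left of all.

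Withaferin A was compared with the same DMSO arrays, so the comparisons are not independent of each other. The lowest values were those of Idi1 and Msmo1, with signals 25.5% and 18.7% below DMSO. Hmgcs1, Sc5d, Dhcr7, Cyp51 and Insig1 were lower by 11.6% to 12.8%. The transcription factor genes Srebf1 and Srebf2 differed by 0.054 and −0.025. None of the 32 genes passed the test (limma, 0 of 32), and 0 of 14953 genes did over the whole array (0%), where 2352 had an unadjusted p under 0.05. At that unadjusted level 10 of the 32 were lower (all genes: 9.11%) and 0 were higher (all genes: 6.62%), namely 6 of 17 sterol enzymes, 1 of 6 regulators and carriers and 3 of 9 fatty acid enzymes.

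The log2 change was below 0 for 23 of 32 genes (all genes: 51.5%), and for 16 of 32 after a renewed quantile normalization (7071 of 14953 genes). Medians were −0.041 for sterol enzymes, 0.035 for regulators and carriers and −0.052 for fatty acid enzymes, against −0.0041 for all genes. The signs of the last 2 medians depend on scaling: regulators had −0.011 when arrays were centred on their medians, and fatty acid enzymes had 0.0040 after a renewed quantile normalization. The sterol median was −0.012 with quantile normalization, −0.086 with centring and −0.091 without withaferin A replicate 2. Under quantile normalization 5 of the 32 genes were lower at an unadjusted p under 0.05 (all genes: 6.91%), all of them sterol enzymes. With centring there were 12 (all genes: 15.5%).

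Bright genes had lower values than dim genes in this comparison. Genes under a mean log2 signal of 8 had a median of 0.050, with 3.87% of them lower at an unadjusted p under 0.05, and genes above 12 had a median of −0.055, with 20.6% lower. Of the members, 3 lie in the lowest range, with 0 of them lower at that level, and 2 in the highest, with 2 lower. Between 10 and 11, where Hmgcs1, Msmo1, Sc5d and Insig1 lie, 5 of 6 members were lower, against 16.5% of all genes there. Between 9 and 10 it was 1 of 9 members, against 13.2%. Between 8 and 9 it was 2 of 7 members, against 10.8%, and between 11 and 12 it was 0 of 5, against 17.8%. In the celastrol comparison 5.2% of genes under 8 were lower at an unadjusted p under 0.05 (0 of 3 members), 6.38% between 9 and 10 (4 of 9 members), 6.96% between 10 and 11 (4 of 6 members) and 13.4% above 12 (1 of 2 members). Shares were 7.31% between 8 and 9 (2 of 7 members) and 7.07% between 11 and 12 (1 of 5 members). The celastrol median was −0.0089 for genes under 8 and −0.031 for genes above 12. The part of brightness in the members' values was not tested.

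Idi1, which interconverts the isoprenoid units and whose promoter holds 2 CCAAT matches, had 8.22, 8.39, 8.41 and 8.51 with withaferin A, against 8.91, 8.85, 8.59 and 8.87 with DMSO. The groups did not overlap, and DMSO replicate 3 was the lowest control. The difference was −0.42 ± 0.08 (SE, 95% interval −0.60 to −0.25; limma adjusted p = 0.11). The second probe set of Idi1 gave −0.38. Without DMSO replicate 3 the value was −0.50 (limma adjusted p = 0.0319), and with array weights −0.44 (adjusted p = 0.0345). Over all alternatives the limma adjusted p of Idi1 ran from 0.0319 to 0.448.

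Msmo1, the methylsterol oxidase that removes methyl groups from early sterols, had 10.01, 9.81, 9.89 and 9.95 with withaferin A and 10.34, 10.28, 10.05 and 10.19 with DMSO. These groups were also separate, by the narrow gap between 10.01 and 10.05, and DMSO replicate 3 was again lowest. The difference was −0.30 ± 0.07 (SE, 95% interval −0.45 to −0.15; limma adjusted p = 0.155), and −0.35 without DMSO replicate 3 (adjusted p = 0.0447). Over all alternatives the limma adjusted p of Msmo1 ran from 0.0447 to 0.457. Idi1 and Msmo1 were the 2 members called without DMSO replicate 3. With it left out, 172 of all genes were called, against 0 with it.

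Sc5d, which introduces the last ring double bond before Dhcr7 acts, had 9.95, 10.08, 10.01 and 9.98 with withaferin A, 10.03, 9.97, 10.02 and 10.11 with celastrol and 10.34, 10.17, 10.05 and 10.26 with DMSO. Its treated arrays overlapped DMSO through DMSO replicate 3 alone, and the withaferin A difference was −0.20 ± 0.06 (SE; limma adjusted p = 0.203). Hmgcs1 and Dhcr7, with the array values given above, differed by −0.18 ± 0.05 (adjusted p = 0.176) and −0.18 ± 0.06 (adjusted p = 0.208). Insig1 differed by −0.18 ± 0.06 (adjusted p = 0.23), and Scd1 by −0.16 ± 0.06 (adjusted p = 0.235). Cyp51 differed by −0.20 ± 0.08 (unadjusted p = 0.0278) and Elovl5 by −0.15 ± 0.06 (unadjusted p = 0.0261), both with overlapping arrays.

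Srebf1 differed by 0.054 ± 0.045 with withaferin A (limma adjusted p = 0.589), with a 95% interval from −0.044 to 0.15. Srebf2 differed by −0.025 ± 0.054 (adjusted p = 0.847), a value that became 0.042 after a renewed quantile normalization and 0.0011 without withaferin A replicate 1. The remaining sterol enzymes ranged from −0.085 for Fdft1 and −0.084 for Ebp to 0.070 for Nsdhl and 0.074 for Hsd17b7. Fads2 differed by −0.11 ± 0.06. The values of Sqle, Mvk, Stard4, Acly, Acaca, Fasn, Elovl6 and Fads1 lay between −0.052 and 0.026, and each changed sign under a renewed quantile normalization or under centring. In all, 7 of 32 genes had withaferin A arrays wholly below DMSO (all genes: 4.69%), and 0 wholly above (all genes: 2.91%). These were Hmgcs1, Idi1, Msmo1, Dhcr7, Insig1, Scd1 and Scd2. Their number was 2 after a renewed quantile normalization (all genes: 3.21%) and 11 without DMSO replicate 3 (all genes: 11.9%).

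**Figure D4:**
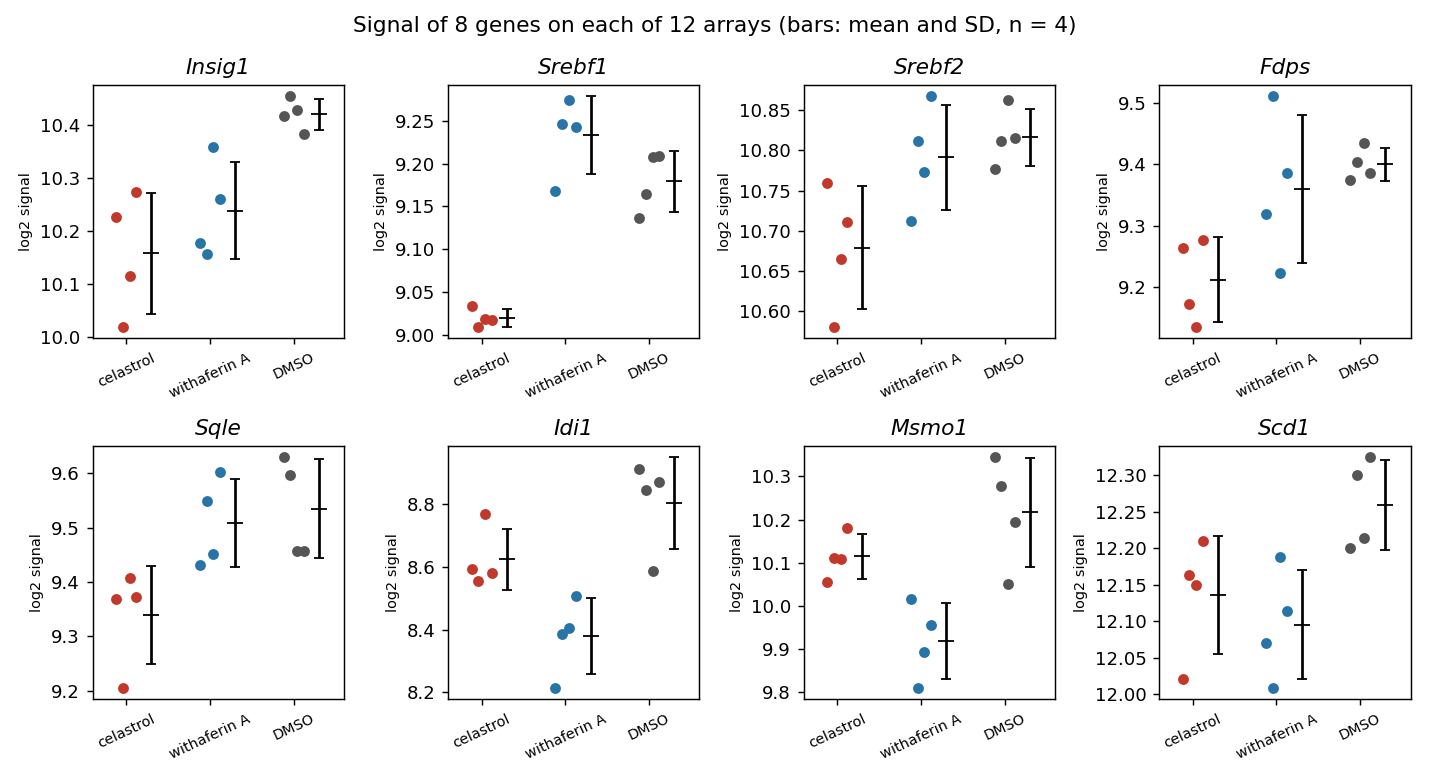
Log2 signal of Insig1, Srebf1, Srebf2, Fdps, Sqle, Idi1, Msmo1 and Scd1 on each array, with celastrol, withaferin A and DMSO from left to right, points for arrays and bars for mean and SD (n = 4); the vertical scale differs between genes. Srebf1 is lowest on all 4 celastrol arrays, from 9.01 to 9.03. Idi1 and Msmo1 are lowest on the withaferin A arrays, and DMSO replicate 3 stands low among the controls.

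The compounds were then set against each other directly, at their different doses, to see which genes differed between them. Srebf1 was higher with withaferin A than with celastrol, and so were Fdps and Sqle by smaller amounts, while Idi1 and Msmo1 were lower. None of the 32 genes passed the test (limma, 0 of 32), where 7 of all genes did (0.0468%), 1 higher with withaferin A (0.00669%) and 6 lower (0.0401%). The count of 7 ran from 0 (without celastrol replicate 3 or withaferin A replicate 4) to 56 (without withaferin A replicate 1). At an unadjusted p under 0.05, 3 members were higher with withaferin A (all genes: 8.67%) and 2 lower (all genes: 7.46%), shares close to those of all genes. Members whose groups did not overlap numbered 2 higher, Srebf1 and Sqle (all genes: 3.92%), and 2 lower, Idi1 and Msmo1 (all genes: 5.35%).

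Srebf1 had 9.17 to 9.27 on withaferin A arrays and 9.01 to 9.03 on celastrol arrays, with no overlap. The difference was 0.21 ± 0.05 (SE, n = 4 per group, 95% interval 0.12 to 0.31; limma adjusted p = 0.0882), or 15.9%, and its adjusted p ran from 0.06 to 0.238 over the alternatives tried. Srebf2 differed by 0.11 ± 0.05 (adjusted p = 0.321), and all 6 regulators and carriers had values above 0, with a median of 0.098 against 0.013 for all genes. Scap, Insig1, Insig2 and Stard4 contributed 0.084, 0.080, 0.040 and 0.13. The 95% interval for Insig1 ran from −0.059 to 0.22 and contains 0. Without celastrol replicate 2 the median of the 6 was 0.053, with Srebf2 at 0.079 and Insig1 at 0.034.

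Idi1 had 8.22 to 8.51 with withaferin A and 8.56 to 8.77 with celastrol, and the difference was −0.25 ± 0.08 (SE, 95% interval −0.42 to −0.068; limma adjusted p = 0.203). Msmo1 had 9.81 to 10.01 with withaferin A and 10.06 to 10.18 with celastrol, a difference of −0.20 ± 0.07 (SE, 95% interval −0.34 to −0.050; limma adjusted p = 0.207). Both genes thus lay lower with withaferin A on every array at the probe sets used, without use of the DMSO arrays in the subtraction. The second probe set of Idi1 gave −0.18. In a limma fit over all probe sets its unadjusted p was 0.0592, against 0.0168 for the probe set used. Sqle, with 9.43 to 9.60 for withaferin A and 9.21 to 9.41 for celastrol, differed by 0.17 ± 0.06 (adjusted p = 0.238). Without celastrol replicate 2 it differed by 0.12. Fdps, with 9.22 to 9.51 for withaferin A and 9.13 to 9.28 for celastrol, differed by 0.15 ± 0.06 (adjusted p = 0.273), with overlap.

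Apart from Srebf1, Fdps, Sqle, Idi1 and Msmo1, members had direct differences between −0.10 for Fdft1 and 0.17 for Pmvk, with unadjusted p-values above the 0.05 level. For Dhcr7 the difference was 0.015 (95% interval −0.11 to 0.14) and for Scd2 0.00081 (−0.096 to 0.097). For Hmgcs1 it was −0.036 (−0.15 to 0.075) and for Scd1 −0.041 (−0.17 to 0.086), and both signs turned positive after a renewed quantile normalization, at 0.018 for Hmgcs1 and 0.012 for Scd1. The direct differences of Sc5d, Dhcr7, Scd2, Fads1, Fads2, Fasn, Acaca, Elovl6 and Mvk likewise changed sign under that normalization or under centring. The median of sterol enzymes was 0.015, and −0.019 with centring. That of fatty acid enzymes was 0.00081, −0.034 with centring and 0.064 with quantile normalization.

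**Figure D5:**
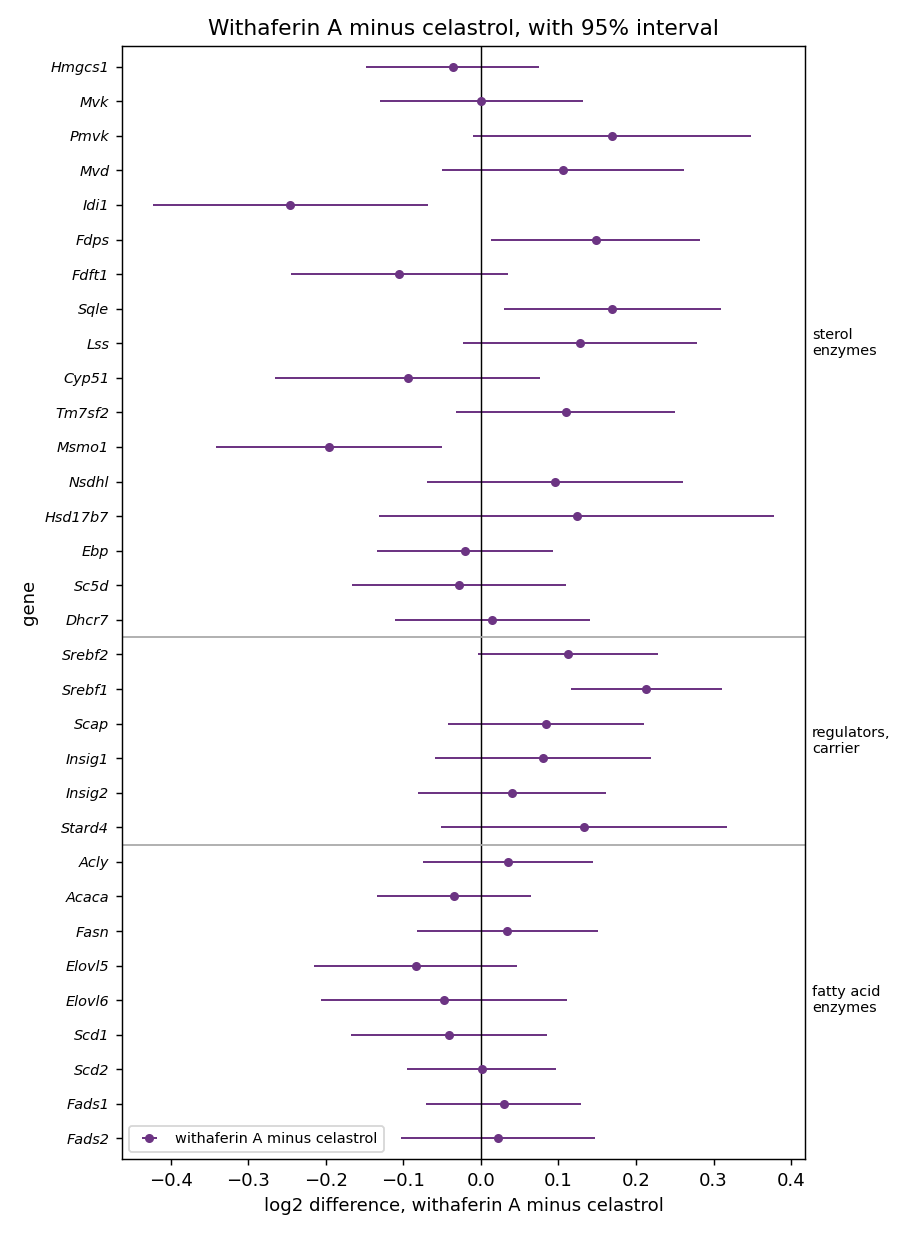
Log2 difference between withaferin A and celastrol arrays for each of the 32 genes, with points for the estimates and bars for the 95% interval (n = 4 arrays per group); values right of 0 are higher with withaferin A. All 6 regulators and carriers lie right of 0, with Srebf1 at 0.21. Idi1 (−0.25) and Msmo1 (−0.20) are the 2 points whose whole interval lies left of 0.

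Correlations of deviations from group means over the 12 arrays, which share one normalization, describe how the genes varied within groups. They had a median of 0.47 among the regulators and carriers, with 14 of 15 pairs above 0. All 6 of these genes lay below their group mean on celastrol replicate 2, by log2 deviations of −0.24 to −0.010, and on withaferin A replicate 1, by −0.13 to −0.031, and the part of these arrays in the median was not tested. Among sterol enzymes the median was 0.087, with 82 of 136 pairs above 0, and between sterol and fatty acid enzymes it was −0.0016, with 76 of 153. The regulators and carriers had a median of 0.18 with sterol enzymes (70 of 102 above 0) and −0.15 with fatty acid enzymes (20 of 54). Among fatty acid enzymes the median was 0.070, with 21 of 36 pairs above 0. The highest single values were 0.87 for Cyp51 with Scd1, 0.87 for Dhcr7 with Scap and 0.85 for Cyp51 with Nsdhl, and the lowest was −0.87 for Srebf1 with Elovl5. These are descriptions over few arrays, not tests.

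Other genes of the same pathways, from pathway lists, were read from the same fit. Of 10 further sterol pathway genes, 23 fatty acid pathway genes and 14 genes of sterol handling, 0 passed in any of the 3 comparisons (limma). At an unadjusted p under 0.05, celastrol gave 0 of 10 sterol genes, 6 of 23 fatty acid genes lower and 1 higher, and 1 of 14 handling genes lower (all genes: 6.25% lower, 4.19% higher). Withaferin A gave 0 of 10, 4 of 23 lower and 1 higher, and 1 of 14 in each direction (all genes: 9.11% lower, 6.62% higher). Between the compounds, 1 of 10, 4 of 23 and 0 of 14 were lower with withaferin A (all genes: 7.46%), and 0 of 10, 1 of 23 and 3 of 14 were higher (all genes: 8.67%). The 10 further sterol genes had a median of 0.0031 with celastrol, against −0.11 for the 17 enzymes above, and of −0.049 with withaferin A, against −0.041 for the 17. They were below 0 for 5 of 10 genes with celastrol and 9 of 10 with withaferin A, and between the compounds for 8 of 10, with a median of −0.074. Medians of the 23 fatty acid genes were −0.026 with celastrol, −0.046 with withaferin A and 0.0043 between the compounds, and those of the 14 handling genes were −0.039 with celastrol, 0.013 with withaferin A and 0.059 between the compounds.

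Me1, malic enzyme, which supplies NADPH for fatty acid synthesis, had 9.45, 9.47, 9.42 and 9.53 with celastrol, 9.49, 9.43, 9.52 and 9.51 with withaferin A and 9.71, 9.65, 9.53 and 9.76 with DMSO. Treated arrays lay below the lowest DMSO array, replicate 3, with differences of −0.20 ± 0.06 for celastrol (limma adjusted p = 0.157) and −0.17 ± 0.06 for withaferin A (adjusted p = 0.202). Mid1ip1, which promotes the polymerization of acetyl-CoA carboxylase, had 9.67, 9.53, 9.43 and 9.23 with celastrol and 9.60, 9.72, 9.81 and 9.89 with DMSO, a difference of −0.29 ± 0.09 (adjusted p = 0.213) with overlap. Acsl5, an acyl-CoA synthetase, had 7.71, 7.88, 7.71 and 7.82 with celastrol and 8.07, 8.05, 7.91 and 7.84 with DMSO, and differed by −0.19 ± 0.07 (adjusted p = 0.277), also with overlap.

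With withaferin A, Hsd17b12, the ketoreductase of fatty acid elongation, had 8.81, 8.96, 9.04 and 9.07 against 9.30, 9.16, 9.11 and 9.18 with DMSO, and differed by −0.22 ± 0.07 (limma adjusted p = 0.208). Lrp8, a receptor for apolipoprotein E and reelin, had 9.86, 9.71, 9.78 and 9.84 against 9.61, 9.66, 9.69 and 9.64 with DMSO, a difference of 0.15 ± 0.05 (adjusted p = 0.222). Neither pair of groups overlapped. Between the compounds, the elongation dehydratases Hacd3 and Hacd2 and the sterol-regulated scaffold Erlin1 had the smallest p-values. Hacd3 had 10.46, 10.55, 10.45 and 10.37 with withaferin A and 10.56, 10.72, 10.59 and 10.66 with celastrol, a difference of −0.18 ± 0.06 (adjusted p = 0.179). Hacd2 had 11.18, 10.74, 10.91 and 10.72 with withaferin A and 11.06, 11.32, 11.28 and 11.31 with celastrol, −0.35 ± 0.11 (adjusted p = 0.191) with overlap. Erlin1 had 7.48 to 7.54 with withaferin A and 7.60 to 7.89 with celastrol, −0.19 ± 0.06 (adjusted p = 0.187).

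Most markers of oligodendrocytes, a main site of sterol synthesis, had lower values than DMSO, 12 of 14 with celastrol and 11 of 14 with withaferin A. Of 14 tested markers, 2 fell with celastrol, Opalin by 50.1% (95% interval −61.7% to −35.0%; limma adjusted p = 0.0229) and Sox10 by 23.8% (−32.4% to −14.0%; limma adjusted p = 0.0433), against 0.314% of all genes. The count of 2 was 0 without DMSO replicate 1, 2 or 4 or celastrol replicate 2, 3 or 4, it was 1 without DMSO replicate 3 or withaferin A replicate 3, and it was 4 without withaferin A replicate 1. At an unadjusted p under 0.05 there were 9 of 14 lower (all genes: 6.25%) and 1 higher (all genes: 4.19%). The higher marker was Mobp, by 0.31, with celastrol arrays wholly above DMSO, and Cldn11 also had a celastrol value above 0. The median was −0.20 with celastrol and −0.14 with withaferin A, where 0 passed and 8 were lower at an unadjusted p under 0.05 (all genes: 9.11%). Summed over the 14 markers, log2 signals ran from 137.0 to 137.7 with celastrol, from 136.1 to 139.8 with withaferin A and from 140.1 to 141.2 with DMSO. Mbp, a main myelin protein, differed by −0.061 ± 0.049 with celastrol. Medians of 10 astrocyte markers were 0.0049 with celastrol and −0.036 with withaferin A, and those of 10 neuron markers −0.013 with celastrol and −0.041 with withaferin A. The part of these cells in the sterol values was not tested, and in RNA of whole tissue fewer cells of a type and less RNA per cell cannot be told apart.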

How the data were processed

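Hypothalamic RNA of 12 mice was hybridised to 1-colour Affymetrix arrays, 1 per mouse. The deposited log2 signals of 35556 probe sets had been processed by the authors with RMA, which corrects background, normalizes across arrays and sums probes, per the submitters' processing notes; its version and the genome build are not given in the sources used here. Samples were grouped by the treatment in the labels.

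Probe sets were named through a platform annotation table: 21789 had 1 gene symbol, 1621 several and 12146 none, and only the first kind was used. Each of the 19938 genes was represented by the probe set with the highest mean. Dim genes, with means under 5.81 (the 25th percentile), were dropped, which left 14953 for testing. In R 4.3.3, limma 3.58.1 (lmFit, eBayes) fitted group means to all 12 arrays, with 9 residual and 4.44 prior degrees of freedom, and the 3 groups were compared pairwise, two-sided. P-values were adjusted by the Benjamini-Hochberg method across all tested genes (threshold 0.05), and intervals cover 95%. The fit was tested on simulated data. Precision rests on the number of arrays, since there are no counts behind the signals. The p-values set each difference against the spread between these mice, pooled over the 3 groups and moderated by that of the other genes.

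The genes and lists were chosen with earlier results of these data known, so no list received a test: lists are described by counts and medians beside those of all genes. Every listed gene is named; array values are given for the 6 with the smallest p in each comparison and for Srebf1, Srebf2, Insig1, Hmgcs1 and Scd1, and for the 3 smallest p among other pathway genes. Array values of Scd2 and Acaca were added after they had been seen. Marker lists for microglia, endothelium, thalamus and choroid plexus were read from the same fit. Replicate numbers were checked for pairing and did not pair the arrays. Alternatives were a renewed quantile normalization, centring each array on its median, no filter or one at the 50th percentile, the mean over a gene's probe sets, array weights, a prior with an intensity trend, 8-array fits of 2 groups at a time, the replicate number as a block, and the omission of each array. Promoters came from RefSeq (GRCm38.p6). Plots were drawn with matplotlib 3.10.9.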

Additional observations from a re-analysis of the deposited data

Results flagged for a closer look

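With 4 arrays per group, an array was marked where its gap to the nearest of the others was large for the group's range (Dixon's test at the 95% level). Of 108 groups of values 5 were marked, and chance marks about 1 in 20 groups. Pmvk, phosphomevalonate kinase, was marked in 2 groups: withaferin A replicate 1 had a log2 signal of 7.57 where the other withaferin A arrays had 7.81 to 7.83, and DMSO replicate 3 had 7.87 where the other DMSO arrays had 7.63 to 7.67. Lss, lanosterol synthase, had 8.70 on withaferin A replicate 4, against 8.48 to 8.51 on the others. Acaca, acetyl-CoA carboxylase, had 9.83 on celastrol replicate 4 and 9.81 on each of the others, so the gap is small on the scale of the data. The mean deviation of the regulators and carriers was −0.072 on withaferin A replicate 1, against 0.017 to 0.022 on the other withaferin A arrays.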

How the results depend on the processing

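Of the counts and list medians under the alternatives, 334 stayed close to the reported fit and 44 moved. A count was close when equal or within a fixed ratio, and a median when it moved by less than the spread between arrays. Of the values of single genes, 537 kept their sign and their side of the threshold. Another 4 changed sign, and 5 passed the threshold. Genes called for celastrol, 115 in the reported fit, numbered 60 without a filter, 195 with an intensity trend, 219 with array weights, 182 from the 8 arrays alone and 6 to 207 with single arrays left out. For withaferin A, 0 in the reported fit, they numbered 8 with the trend, 21 with weights and 0 to 172 with single arrays left out. For the direct comparison, 7 in the reported fit, they numbered 12 with centring, 11 without a filter, 13 at the 50th percentile, 29 with the trend, 19 with weights, 0 from 8 arrays and 0 to 56 with single arrays left out. Members called for celastrol were 1 with the trend and 1 with weights (Insig1); for withaferin A they were 1 with weights and 0 to 2 with single arrays left out. Members lower at an unadjusted p under 0.05 were 7 to 12 for celastrol with single arrays left out and 5 for withaferin A with quantile normalization.

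Leaving out single arrays, the celastrol medians ran from −0.15 to −0.068 for regulators and from −0.097 to −0.053 for fatty acid enzymes, and the withaferin A median of sterol enzymes from −0.091 to −0.039. That median was −0.012 with quantile normalization and −0.086 with centring, and that of fatty acid enzymes −0.098 with centring, against 0.0040 with quantile normalization; the direct fatty acid median was −0.034 with centring and 0.064 with quantile normalization. Signs turned for Srebf2 with withaferin A (0.042 with quantile normalization, −0.050 to 0.0011 with single arrays left out) and, between the compounds with quantile normalization, for Hmgcs1 (0.018) and Scd1 (0.012). The causes were not tested.

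The replicate block gave 54 called genes for celastrol and moved no other value in the sense above. Same-numbered arrays correlated at −0.28 to 0.12, 2 of 12 pairs lay above 0.1, and 1 of 12 arrays matched its own number best, so the numbers do not pair the arrays. The median SE of the members was 0.062 (0.045 to 0.12), which limits what 4 arrays per group can show.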

Other observations

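Other marker lists were read as values. Of 10 hypothalamic markers, 1 passed the test with celastrol, Oxt (oxytocin), which fell by 24.4% (limma adjusted p = 0.0179), and 0 passed with withaferin A. At an unadjusted p under 0.05, 5 of the 10 were lower with celastrol (all genes: 6.25%) and 4 with withaferin A (all genes: 9.11%). Their medians were −0.16 with celastrol and −0.14 with withaferin A, with 8 of 10 below 0 for each, and their part in the values of the synthesis genes was not tested. The 6 microglial markers had medians of −0.046 with celastrol and −0.13 with withaferin A. The 5 endothelial markers had −0.12 with celastrol and −0.074 with withaferin A. The 4 pituitary markers, with Prl passing the filter through celastrol replicate 2, had 1.37 with celastrol and 0.29 with withaferin A. The 7 thalamic markers had 0.23 with celastrol and 0.15 with withaferin A, and the 6 choroid plexus markers −0.044 with celastrol and −0.0099 with withaferin A. Thalamic scores varied within every group, from −0.11 to 0.98 on celastrol arrays, from −0.30 to 0.71 on withaferin A arrays and from −0.52 to 0.69 on DMSO arrays.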
